A study of Mus musculus with 12 samples.

Results

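Genes of the major histocompatibility complex (MHC) class II pathway were followed in whole mouse lung. They were H2-Aa, H2-Ab1, H2-Eb1, H2-DMa, H2-DMb1, H2-Oa, Cd74 and Ciita, picked by symbol and mapped to their Ensembl identifiers. All 8 were found among the 54532 genes of the read count table, and all 8 passed the low-count filter that left 17473 genes for testing. RNA was enriched for poly(A) and sequenced as 12 libraries in 4 groups of 3. CKO_CRE lungs came from Cc10-Cre;Rhoafl/fl mice given the treatment labelled CRE, and WT_CRE lungs from Cc10-Cre mice given CRE. CKO_PBS lungs came from Cc10-Cre;Rhoafl/fl mice given PBS, and WT_PBS lungs from Cc10-Cre mice given PBS. CRE is used as the labels write it, without an expansion, and is separate from Cre recombinase. All 4 groups therefore carried Cc10-Cre, in which Cre is driven by the marker gene of club (Clara) cells, the secretory cells of the airway lining. Loss of the floxed Rhoa, a small GTPase gene, would be limited to Cc10-expressing cells. Neither strain nor age is stated in the labels. The title of the series concerns club cell RhoA, allergic airway inflammation and interstitial macrophages.

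MHC class II molecules present peptides from endocytosed protein to CD4+ T cells. An alpha and a beta chain assemble with the invariant chain, encoded by Cd74, which blocks the peptide groove and is then cut down by lysosomal proteases. H2-DM, a dimer of H2-DMa and H2-DMb chains, exchanges the last invariant chain fragment for peptide, and H2-O, a dimer of H2-Oa and H2-Ob, holds H2-DM back. Ciita encodes the coactivator that turns on class II genes, through factors bound to X and Y boxes in front of them. Dendritic cells, macrophages and B cells are the main carriers of class II, and H2-O is known mostly from B cells. Type 2 alveolar cells of the lung also make class II.

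On the mm10 build (GENCODE M21 annotation), 6 of the 8 genes lie together on chromosome 17. H2-Oa spans chr17:34092340-34095234, H2-DMa chr17:34119541-34139101, H2-DMb1 chr17:34153072-34160230, H2-Ab1 chr17:34257689-34269419, H2-Aa chr17:34282744-34287823 and H2-Eb1 chr17:34305867-34316674. Cd74 lies at chr18:60803848-60812652 and Ciita at chr16:10480059-10528418.

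Some exons and sequences are shared with other genes. Exons of H2-DMa share 360 bases with Brd2 on the opposite strand, 10.4% of its exon length. Exons of H2-Oa share 321 bases (22.8%) with BC051537, and exons of Ciita share 329 bases (3.45%) with Dexi, both on the opposite strand. Cd74 holds the microRNA gene Mir5107 on its own strand, with 12 exon bases shared. Transcripts of H2-DMb1 and H2-DMb2 were 98.0% identical over their best 200 bases and 95.7% over the longest match of 1081 bases. At best, those of H2-Ab1 and H2-Eb1 were 89.1% identical over 201 bases. Those of H2-Eb1 and H2-Eb2 were 81.1% identical over 556 bases. How reads were assigned to strands and copies is not stated, so the counts of these genes are uncertain to that extent. Class II genes also differ between mouse strains, and the effect of that on read mapping was not tested.

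Promoter windows of RefSeq (GRCm38.p6), from 250 bases before to 50 bases after the start, matched 5 of the 8 genes by symbol: H2-Aa, H2-Eb1, H2-DMa with 2 windows, H2-DMb1 and H2-Oa. H2-Ab1, Cd74 and Ciita had no matching entry. The stretches of 150 bases before the start are shown for the 4 genes with a Y box there, and for H2-Ob, the partner of H2-Oa. The Y box is among the motifs through which class II genes are known to be controlled together. Of the stretches shown, only those of H2-Eb1 and H2-DMb1 also held the X box core searched for. Capitals mark the Y box, GATTGG or its complement CCAATC, and the X box core, searched as AACNGATG. They also mark GNAAC where GATTGG follows after 15 to 35 bases, which overlaps the X box core in H2-Eb1 and H2-DMb1. A GNAAC farther from the Y box in H2-Ob is left in lower case. Starts are those of RefSeq, and the GENCODE models of H2-DMb1 and H2-Oa begin inside the stretches shown.
H2-Aa, chr17:34287824-34287973, minus strand: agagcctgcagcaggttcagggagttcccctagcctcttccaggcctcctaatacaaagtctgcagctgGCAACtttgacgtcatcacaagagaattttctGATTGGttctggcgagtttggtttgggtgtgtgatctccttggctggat
H2-Eb1, chr17:34305717-34305866, plus strand: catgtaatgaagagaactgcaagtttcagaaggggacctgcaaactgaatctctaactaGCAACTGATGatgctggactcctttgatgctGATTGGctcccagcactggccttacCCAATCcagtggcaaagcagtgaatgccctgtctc
H2-DMb1, chr17:34153041-34153190, plus strand: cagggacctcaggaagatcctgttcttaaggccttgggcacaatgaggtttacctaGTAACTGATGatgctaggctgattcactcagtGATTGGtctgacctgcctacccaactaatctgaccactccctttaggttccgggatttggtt
H2-Oa, chr17:34092229-34092378, plus strand: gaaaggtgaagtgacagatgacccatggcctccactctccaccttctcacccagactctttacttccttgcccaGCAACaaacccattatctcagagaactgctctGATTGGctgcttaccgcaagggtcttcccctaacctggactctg
H2-Ob, chr17:34238755-34238904, plus strand: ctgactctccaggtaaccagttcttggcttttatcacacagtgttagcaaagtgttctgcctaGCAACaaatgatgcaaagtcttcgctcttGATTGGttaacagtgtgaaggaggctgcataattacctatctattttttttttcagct

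The Y box began 49 bases before the start in H2-Aa, 60 in H2-Eb1, 62 in H2-DMb1, 44 in H2-Oa and 58 in H2-Ob. On either strand it occurred in 16.1% of 32851 promoter windows. AACNGATG occurred on either strand in 2.32% of them. AACNGATG followed by GATTGG with 10 to 40 bases between was found in 10 windows, 0.0304% of all, and 4 of these belonged to class II genes: H2-Eb1, H2-DMb1, H2-Eb2 and H2-DMb2. The looser order of GNAAC and then GATTGG with 15 to 35 bases between was found in 1.21% of windows, and in 4 of the 5 genes with a window. That pattern was chosen after the sequences were seen. The gap was 27 bases in H2-Aa, H2-DMb1 and H2-Oa, 26 in H2-Eb1 and 24 in H2-Ob. Neither window of H2-DMa held AACNGATG, and 1 of them held a Y box 199 bases before the start.

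Library totals were 16250674 to 21559210 counts. By Y-linked counts, CKO_CRE held 1 male and 2 females, WT_CRE 1 male and 2 females, CKO_PBS 2 males and 1 female, and WT_PBS 3 males, so sex differed along with CRE. The labels give a single batch number and do not state that the libraries of a group came from separate mice, and p-values measure the spread between these libraries. Markers of type 2 alveolar cells summed to 24704 to 35431 CPM (counts scaled to library size) and every marker of the B cell, dendritic cell, macrophage and T cell lists was detected. Rhoa itself was measured at 465, 544 and 495 CPM in CKO_CRE, 523, 531 and 521 CPM in WT_CRE, 469, 398 and 481 CPM in CKO_PBS and 488, 471 and 485 CPM in WT_PBS. Its CKO over WT difference was -0.07 ± 0.10 (log2 ± SE) under CRE and -0.10 ± 0.10 under PBS, and neither was called by edgeR (adjusted p = 0.728 and 1). Whole lung also holds cells without Cc10, so Rhoa in it is no test of the genotype labels. Replicate 1 of CKO_CRE was the lowest of its group for all 8 class II genes, and the CPM of every library is given with each of the 8.

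Levels of different genes were compared per length, as CPM divided by exon length in kilobases (RPKM). Cd74 was the most abundant of the 8 in every group, at 1970 ± 628 RPKM in CKO_CRE, 2000.0 ± 217 in WT_CRE, 788 ± 196 in CKO_PBS and 775 ± 40.4 in WT_PBS (SD, n = 3 each). It held rank 8 of 17459 genes in CKO_CRE, rank 11 in WT_CRE, rank 23 in CKO_PBS and rank 21 in WT_PBS. The beta chains H2-Ab1 and H2-Eb1 came next, with ranges that overlapped in every group, at 508 ± 161 and 504 ± 162 RPKM in CKO_CRE and 188 ± 13.7 and 187 ± 12.1 RPKM in WT_PBS. H2-Aa followed, apart from both, at 253 ± 82.9 RPKM in CKO_CRE and 109 ± 3.13 RPKM in WT_PBS. H2-DMb1 and then H2-DMa were lower again, at 83.1 ± 19.9 and 36.0 ± 7.06 RPKM in CKO_CRE. Ciita and H2-Oa were at the bottom, at 8.43 ± 1.82 and 3.18 ± 1.48 RPKM in CKO_CRE. The ranges of Ciita and H2-Oa overlapped in WT_CRE, at 7.46 to 8.52 and 4.60 to 8.00 RPKM, and were apart in the other 3 groups. With the longest transcript as the length, H2-Ab1 stood at 398 RPKM in WT_PBS, above H2-Eb1 at 218, so their order depends on the gene model.

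**Figure D1:**
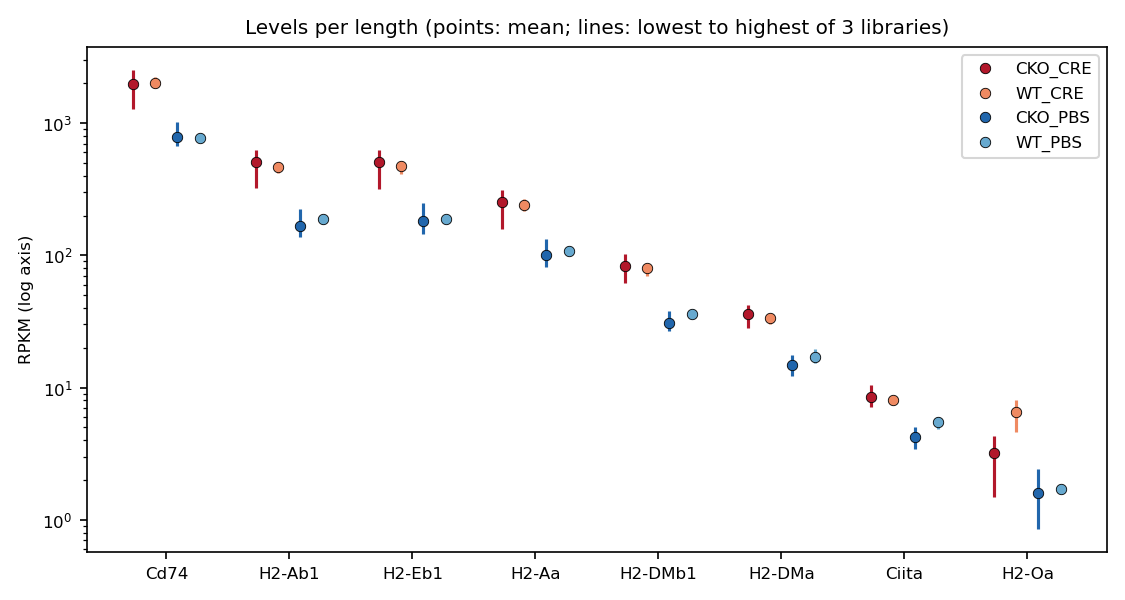
Level of each class II gene per exon length (RPKM, log axis) in CKO_CRE, WT_CRE, CKO_PBS and WT_PBS, with points for the mean and lines from the lowest to the highest of 3 libraries. Cd74 lies highest in all 4 groups and H2-Oa lowest, and the mean with CRE lies above the mean with PBS for each gene and genotype.

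CRE raised the class II set in both genotypes. In WT lungs all 8 genes were called higher by edgeR's quasi-likelihood test (adjusted p below 0.05 over all genes tested), where 28.6% of all tested genes were called higher. In CKO lungs 7 of 8 were called higher, against 20.6% of all tested genes, and H2-Oa missed the threshold. The median log2 fold change of the 8 was 1.22 in WT, beside 0.01 for all genes tested, and 1.32 in CKO, beside 0.00. The libraries of the CRE and PBS groups did not overlap for 8 of 8 genes in WT, where 34.4% of all genes tested were higher without overlap, and for 7 of 8 in CKO, where 24.3% were.

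The classical chains form the peptide groove at the cell surface. H2-Ab1, the beta chain of I-A, was measured at 834, 1609.5 and 1468 CPM in CKO_CRE against 359, 574 and 356 CPM in CKO_PBS. In WT lungs it was at 1243, 1242 and 1070.0 CPM with CRE against 497, 507 and 442 CPM with PBS. Every CRE library of a genotype lay above every PBS library, and replicate 1 of CKO_CRE was the lowest of the 6 CRE libraries. The log2 fold change was 1.60 ± 0.24 in CKO (edgeR adjusted p = 0.000571) and 1.30 ± 0.24 in WT (adjusted p = 0.000727).

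H2-Aa, the alpha chain of I-A, was at 601, 1189 and 1091 CPM in CKO_CRE against 333, 506 and 311 CPM in CKO_PBS. In WT lungs it was at 1014, 888 and 825 CPM with CRE against 401, 424 and 412 CPM with PBS. The groups did not overlap in either genotype. H2-Aa rose by 1.32 ± 0.24 on the log2 scale in CKO (edgeR adjusted p = 0.00161) and by 1.14 ± 0.24 in WT (adjusted p = 0.00162). H2-Eb1, the beta chain of I-E, was at 621, 1207 and 1113.5 CPM in CKO_CRE against 284, 483 and 289 CPM in CKO_PBS. In WT lungs it was at 1013, 942 and 798 CPM with CRE against 341, 388 and 363 CPM with PBS. It followed the same order of libraries as H2-Ab1 in CKO_CRE, and rose by 1.48 ± 0.25 in CKO (edgeR adjusted p = 0.00119) and by 1.33 ± 0.25 in WT (adjusted p = 0.000865).

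The invariant chain Cd74, which also serves at the cell surface as a receptor for the cytokine Mif, had 2159.9, 4234 and 3527 CPM in CKO_CRE against 1124, 1704 and 1141 CPM in CKO_PBS. In WT lungs it had 3770.5, 3219 and 3084 CPM with CRE against 1278, 1379 and 1249.5 CPM with PBS. The groups were apart in both genotypes, and CKO_CRE spanned a wider range than WT_CRE. Cd74 rose by 1.32 ± 0.23 in CKO (edgeR adjusted p = 0.00131) and by 1.37 ± 0.23 in WT (adjusted p = 0.000428). Across the 4 groups the log2 ratio of Cd74 to H2-Ab1 (RPKM) ran from 1.88 to 2.01 in CKO_CRE, 1.99 to 2.21 in WT_CRE, 2.18 to 2.29 in CKO_PBS and 1.97 to 2.11 in WT_PBS.

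Among the peptide-loading genes, both chains of the exchange factor H2-DM rose. H2-DMa was at 97.5, 145 and 129.7 CPM in CKO_CRE against 49.7, 61.0 and 41.9 CPM in CKO_PBS, and at 122, 123 and 103 CPM in WT_CRE against 53.3, 67.3 and 54.6 CPM in WT_PBS. H2-DMb1 was at 104, 171 and 144 CPM in CKO_CRE against 47.5, 63.3 and 45.0 CPM in CKO_PBS, and at 140.2, 144 and 118 CPM in WT_CRE against 59.6, 61.65 and 60.6 CPM in WT_PBS. For both genes every CRE library lay above every PBS library of its genotype. H2-DMa rose by 1.29 ± 0.17 in CKO (edgeR adjusted p = 0.000264) and by 0.99 ± 0.17 in WT (adjusted p = 0.000444). H2-DMb1 rose by 1.43 ± 0.17 in CKO (edgeR adjusted p = 0.000189) and by 1.15 ± 0.17 in WT (adjusted p = 0.000208).

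H2-Oa, the alpha chain of the H2-DM inhibitor, was scarce and rested on 23 to 206 counts per library. It had 2.10, 6.02 and 5.29 CPM in CKO_CRE against 1.19, 3.42 and 2.07 CPM in CKO_PBS. In WT lungs it had 9.97, 11.3 and 6.47 CPM with CRE against 2.53, 2.32 and 2.42 CPM with PBS. The groups overlapped in CKO and were clearly apart in WT. Its log2 fold change was 1.93 ± 0.41 in WT (edgeR adjusted p = 0.0018), and 1.00 ± 0.41 in CKO, which was not called (adjusted p = 0.0711). The CKO value was called under 6 alternatives. With all libraries kept, limma-voom (1.29, adjusted p = 0.0123) and the DESeq2 Wald test (1.00, adjusted p = 0.039) called it. So did edgeR without the low-count filter (1.01, adjusted p = 0.0354) and with a replicate block (1.01, adjusted p = 0.0494). The last 2 were edgeR without CKO_CRE replicate 1 (1.34, adjusted p = 0.0106) and without CKO_PBS replicate 2 (1.45, adjusted p = 0.0271).

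Ciita, the coactivator, changed less than the other called genes in WT. It was at 67.9, 73.2 and 100.2 CPM in CKO_CRE against 40.9, 47.9 and 32.5 CPM in CKO_PBS, and at 71.1, 77.7 and 81.3 CPM in WT_CRE against 53.3, 57.4 and 46.1 CPM in WT_PBS. All CRE libraries lay above all PBS libraries of both genotypes. Ciita rose by 0.99 ± 0.16 in CKO (edgeR adjusted p = 0.00102) and by 0.55 ± 0.16 in WT (adjusted p = 0.0119). The WT call was lost with sex as a covariate (0.35, adjusted p = 0.0789) and without WT_PBS replicate 3 (0.47, adjusted p = 0.0565).

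**Figure D2:**
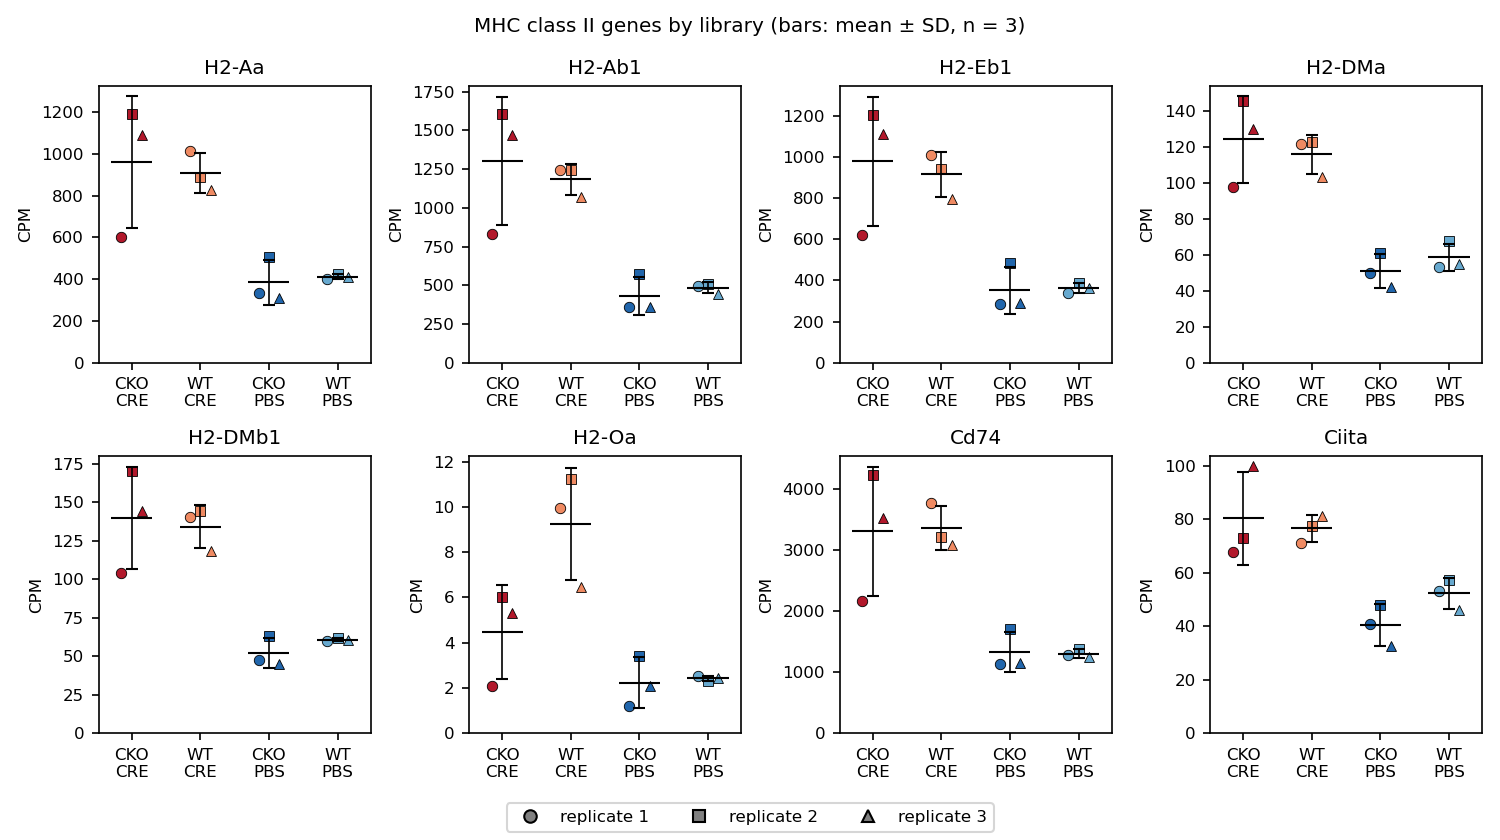
CPM of the 8 class II genes in each library, by group from CKO_CRE through WT_CRE and CKO_PBS to WT_PBS, with bars for the mean ± SD of 3 libraries and symbols for the replicate number. Replicate 1 (circle) is the lowest CKO_CRE library in all 8 panels, and replicate 2 (square) is the highest CKO_PBS library in all 8.

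The direction was the same within each sex that could be compared. Among males, CRE over PBS log2 ratios of mean CPM were 0.44 to 2.04 over the 8 genes in WT (1 library against 3) and 0.37 to 1.22 in CKO (1 against 2). Among CKO females they were 0.73 to 1.42 (2 libraries against 1). All 8 genes were above 0 in each of these 3 comparisons, which are too small for a test. WT_PBS held no female, so WT females could not be compared.

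The proportions between genes were kept in part. The log2 ratio of H2-Eb1 to H2-Ab1 (RPKM) lay between -0.14 and 0.15 in all 12 libraries, and that of H2-DMb1 to H2-DMa between 0.91 and 1.27. The ratio of H2-Aa to H2-Ab1 was lower with CRE in CKO, at -1.04 to -0.99 in CKO_CRE against -0.76 to -0.67 in CKO_PBS. In WT its ranges overlapped, at -1.05 to -0.86 in WT_CRE against -0.88 to -0.67 in WT_PBS. The ratio of Ciita to H2-Ab1 was lower with CRE in both genotypes, at -6.35 to -5.51 in CKO_CRE against -5.47 to -5.03 in CKO_PBS, and at -6.02 to -5.61 in WT_CRE against -5.15 to -5.04 in WT_PBS. The ratio of H2-DMa to H2-Ab1 was lower with CRE in WT, at -3.80 to -3.77 in WT_CRE against -3.65 to -3.34 in WT_PBS. In CKO the 2 ranges overlapped, at -3.93 to -3.52 with CRE against -3.66 to -3.28 with PBS. The ratio of H2-Oa to H2-DMa, inhibitor over exchange factor, was -4.24, -3.30 and -3.32 in CKO_CRE against -2.32, -2.15 and -2.70 in WT_CRE. With PBS it was -4.09, -2.86 and -3.05 in CKO_PBS against -3.11, -3.57 and -3.21 in WT_PBS. WT_CRE thus stood above WT_PBS and above CKO_CRE with no overlap, whereas CKO_CRE overlapped CKO_PBS. These ratios are a description with no test.

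**Figure D3:**
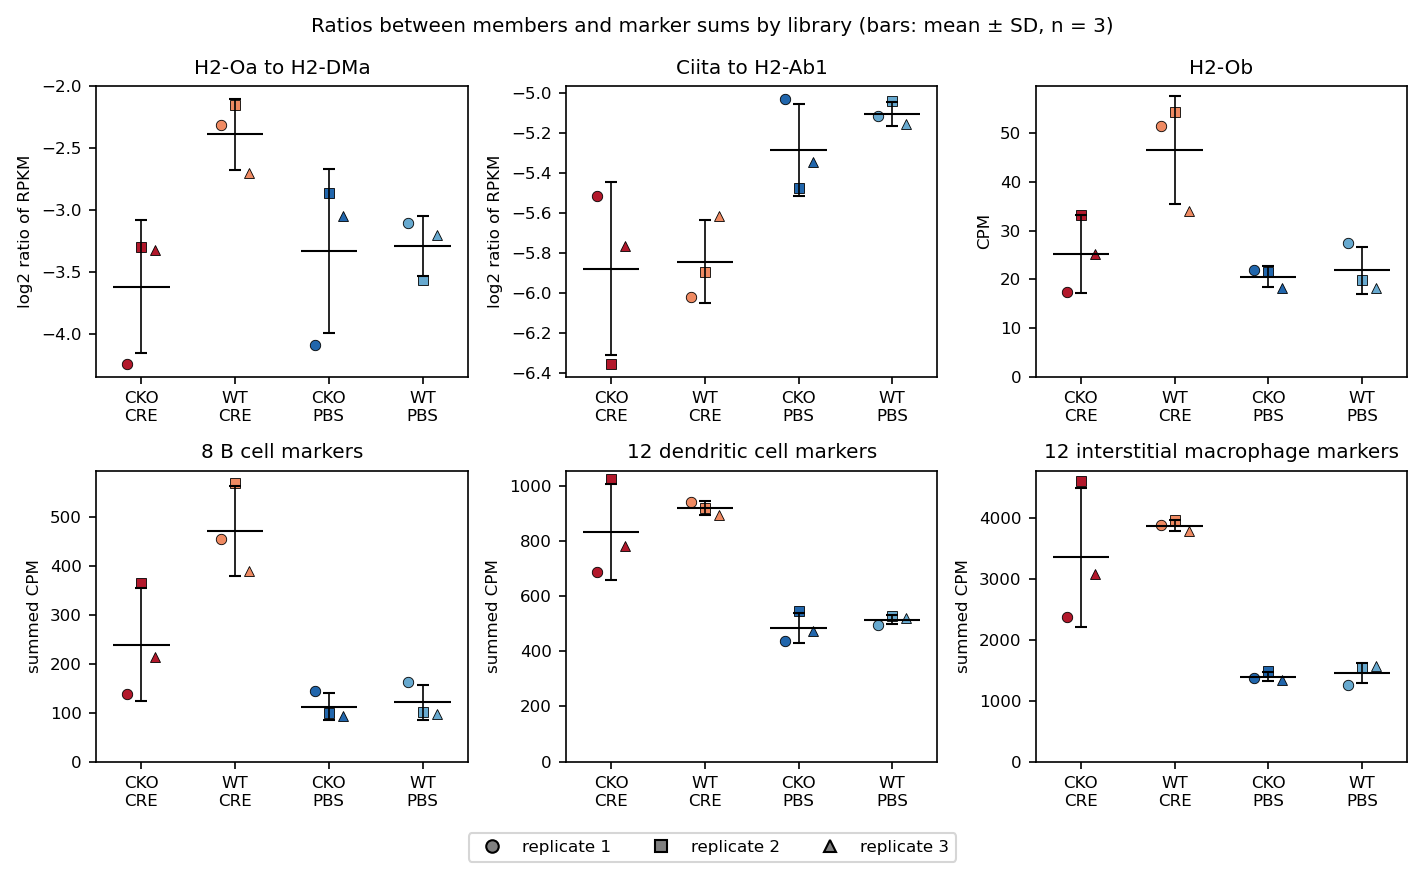
Log2 ratios of RPKM for H2-Oa to H2-DMa and for Ciita to H2-Ab1, CPM of H2-Ob, and summed CPM of B cell, dendritic cell and interstitial macrophage markers, per library in CKO_CRE, WT_CRE, CKO_PBS and WT_PBS, with bars for the mean ± SD of 3 libraries. The H2-Oa to H2-DMa ratio and the B cell sum are highest in WT_CRE, where the B cell sum lies between 390 and 570 CPM.

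No class II gene was called different between the genotypes under CRE. Of the 8, 0 were called by edgeR, beside 0.916% of all genes tested, and 1 had an unadjusted p below 0.05, as had 18.5% of all genes tested. DESeq2 called 0 of the 8, beside 4.8% of all genes tested, and limma-voom with library weights called 2 of the 8, beside 43.8%. For the other 7 genes the CKO_CRE over WT_CRE log2 difference lay between -0.02 (Cd74) and 0.14 (H2-Ab1), and the ranges overlapped. The 95% interval was -0.37 to 0.64 for H2-Ab1, -0.51 to 0.47 for Cd74 and -0.28 to 0.42 for Ciita. With 3 libraries each, differences within these intervals are not excluded, and equality is not shown. Limma-voom called Ciita higher in CKO_CRE (0.36, adjusted p = 0.0367).

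H2-Oa had the lowest difference of the 8. Its 3 CKO_CRE values lay below its 3 WT_CRE values, the single gene of the 8 without overlap, where 7.69% of all genes tested were lower without overlap. The log2 difference was -1.04 ± 0.39 (95% interval -1.89 to -0.19), with an unadjusted edgeR p of 0.0204 and an adjusted p of 0.196. It was called by limma-voom (-1.01, adjusted p = 0.00554) and without CKO_CRE replicate 2 (-1.31, adjusted p = 0.037), a setting that called 28.5% of all genes tested. As limma-voom called 43.8%, neither call is particular to H2-Oa. Within sex it was -2.24 in males (1 library each) and -0.65 in females (2 each).

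The 3 other class II chains measured, H2-Ob, H2-DMb2 and H2-Eb2, were also lower in CKO_CRE, with no call. H2-Ob had 17.4, 33.3 and 25.2 CPM in CKO_CRE against 51.6, 54.3 and 34.0 CPM in WT_CRE, with no overlap and a log2 difference of -0.88 ± 0.24 (edgeR adjusted p = 0.102). H2-DMb2 differed by -0.73 ± 0.27 (adjusted p = 0.191) and H2-Eb2 by -0.81 ± 0.37 (adjusted p = 0.267), and the ranges of both overlapped. All 8 B cell markers, among them Ms4a1 and Cd79a, also had a negative difference between CKO_CRE and WT_CRE. They summed to 138, 365 and 213 CPM in CKO_CRE, 454, 570 and 390 CPM in WT_CRE, 143, 99.95 and 92.5 CPM in CKO_PBS and 163, 102 and 97.8 CPM in WT_PBS. CRE raised 3 of the 8 in CKO, beside 20.6% of all genes tested, and 8 of 8 in WT, beside 28.6%. Between CKO_CRE and WT_CRE 0 of the 8 were called by edgeR, beside 0.916% of all genes tested. Of the 8, 5 were lower without overlap, beside 7.69% of all genes tested. Their median difference was -1.04, beside 0.01 for all genes. The 8 T cell markers summed to 86.9, 198 and 183 CPM in CKO_CRE against 251, 233 and 206 CPM in WT_CRE. With PBS they summed to 84.0, 129 and 64.1 CPM in CKO_PBS and 87.4, 80.5 and 67.6 CPM in WT_PBS. CRE raised 3 of these 8 in CKO and 7 of 8 in WT, beside the same shares of all genes tested. Between CKO_CRE and WT_CRE all 8 had a negative difference, with a median of -0.57. Of these, 0 were called by edgeR (0.916% of all genes tested) and 3 were lower without overlap (7.69%). The part of these cells in the H2-Oa values was not tested, and in whole lung fewer cells of a type and less RNA per cell cannot be told apart.

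The CKO_CRE libraries disagreed among themselves more than those of WT_CRE. The 8 genes summed to 4487, 8635 and 7580 CPM (replicates 1 to 3) in CKO_CRE against 7384, 6647 and 6086 CPM in WT_CRE. Replicate 1 of CKO_CRE was the lowest of its group for 8 of 8 genes and replicate 2 the highest for 7. Set against the WT_CRE means, the median log2 difference of the 8 genes was -0.54 in CKO_CRE replicate 1, 0.34 in replicate 2 and 0.21 in replicate 3, so the similar group means covered differences of both signs. Replicate 1 was the only male of CKO_CRE: between the males the 8 differences were -2.24 to -0.07, and between the females they were -0.65 to 0.42, with 7 of 8 above 0. Interstitial macrophage markers followed the same order, with 2377, 4606 and 3073 CPM in CKO_CRE against 3878, 3962 and 3780 CPM in WT_CRE. Dendritic cell markers did too, with 689, 1026 and 784 CPM in CKO_CRE against 944, 920.1 and 895 CPM in WT_CRE. Their part in the spread was not tested.

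Without CRE, again 0 of the 8 genes were called between genotypes by edgeR, beside 0.109% of all genes tested, with 0 called by DESeq2 (0.652% of all genes) and by limma-voom (0.836%). Ciita alone had an unadjusted p below 0.05, as had 5.32% of all genes tested. Its CKO_PBS over WT_PBS difference was -0.37 ± 0.16, with an unadjusted edgeR p of 0.0425 and an adjusted p of 0.916, and its ranges overlapped. CKO_PBS replicate 2, the only female with PBS, was the highest of its group for 8 of 8 genes. Among males, CKO_PBS was below WT_PBS for all 8, by -0.57 (H2-Oa) to -0.20 (Cd74) on the log2 scale, with 2 libraries against 3. The libraries did not overlap for any of the 8, where 14.0% of all genes tested were lower without overlap in the same comparison. The pooled PBS comparison thus set 1 female and 2 males against 3 males.

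**Figure D4:**
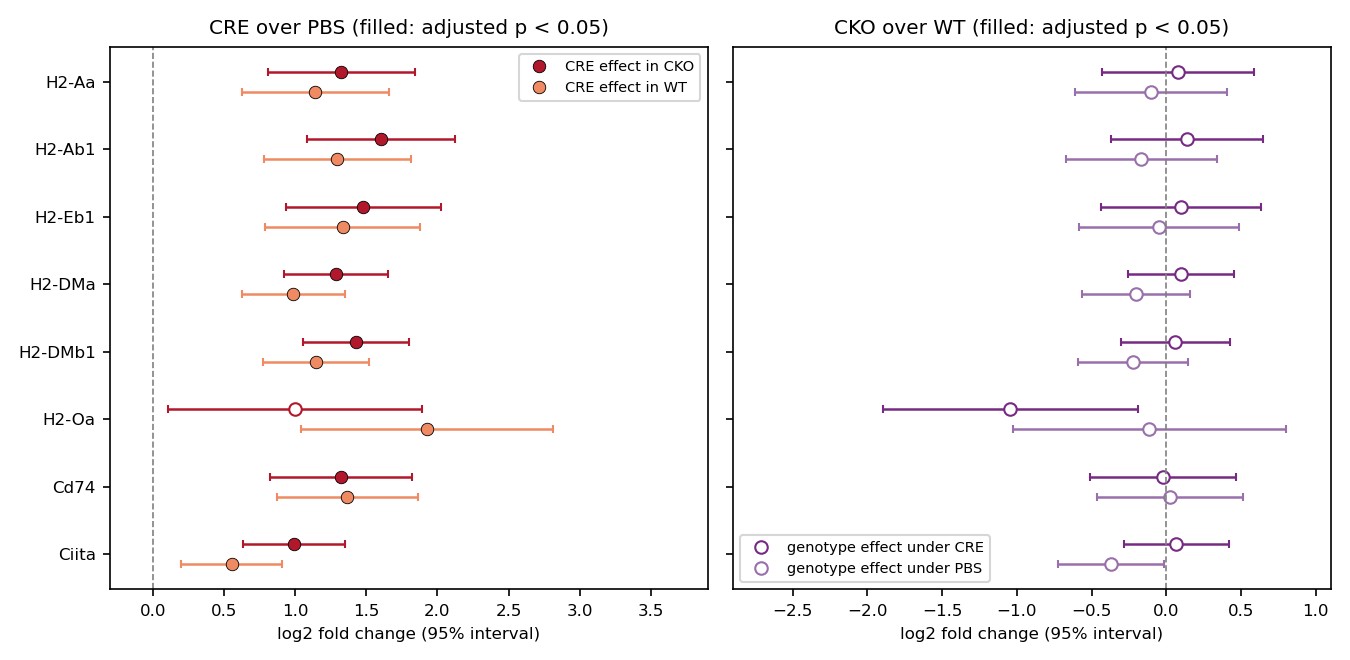
Log2 fold changes with 95% intervals for the 8 class II genes, for CRE over PBS (left, CKO above WT) and for CKO over WT (right, CRE above PBS). Filled points have an edgeR adjusted p below 0.05: 15 of 16 on the left are filled and 0 of 16 on the right.

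Whether CRE acted differently in CKO and in WT was tested as an interaction. Of the 8 genes, 0 were called by edgeR, beside 0.0458% of all genes tested, 0 had an unadjusted p below 0.05 (10.3% of all genes tested), DESeq2 called 0 (0.733% of all genes) and limma-voom called 1 (25.0% of all genes). H2-Oa had an interaction of -0.93 ± 0.57 (edgeR adjusted p = 0.571), and Ciita 0.44 ± 0.23 (adjusted p = 0.52). Ciita was the gene that limma-voom called (0.80, adjusted p = 0.0114). For the other 6 genes it ran from -0.05 (Cd74) to 0.30 (H2-Ab1). That H2-Oa was called in WT and not in CKO therefore does not show that the responses differed.

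Of 20 further genes of the class II pathway, CRE raised 11 and lowered 1 in CKO lungs, and raised 13 and lowered 2 in WT lungs. Of all genes tested, 20.6% were called higher and 18.5% lower in CKO, and 28.6% higher and 28.4% lower in WT. Their median log2 fold change was 0.75 in CKO and 0.98 in WT. The lysosomal enzymes that prepare peptides and trim the invariant chain rose with the chains, 6 of 7 in each genotype. Ctss, the protease known for the late cuts of the invariant chain, was at 771, 2394 and 1380 CPM in CKO_CRE against 244, 284 and 219.5 CPM in CKO_PBS. In WT lungs Ctss was at 1754, 1781 and 1660 CPM with CRE against 239, 272 and 235 CPM with PBS. The groups were far apart, with rises of 2.60 ± 0.31 in CKO and 2.80 ± 0.31 in WT (edgeR adjusted p = 0.000174 and 3.72e-05). Ifi30, a thiol reductase that opens disulphide bonds of antigens, rose by 1.76 ± 0.26 in CKO and 2.55 ± 0.27 in WT. Lgmn, an asparagine-specific endopeptidase, rose by 1.52 ± 0.18 in CKO and 2.03 ± 0.18 in WT. The cathepsin genes Ctsb, Ctsl and Ctsd rose by 1.501, 1.16 and 0.87 in CKO and by 1.95, 1.92 and 1.21 in WT. Sppl2a, an intramembrane protease that removes the invariant chain stub, was not called, at 0.08 ± 0.08 in CKO and 0.00 ± 0.08 in WT. All 3 of the other chains were called higher in WT, at 1.95 ± 0.28 for H2-DMb2, 2.36 ± 0.40 for H2-Eb2 and 1.09 ± 0.24 for H2-Ob. In CKO H2-DMb2 (1.30 ± 0.28) and H2-Eb2 (1.71 ± 0.40) were called, and H2-Ob was not (0.30 ± 0.24, adjusted p = 0.344).

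The factors that bind the X and Y boxes changed by -0.55 to 0.62 on the log2 scale in CKO and by -0.53 to 0.52 in WT. Of 7, Rfx5, an X box subunit, rose in both genotypes (0.62 ± 0.13 in CKO and 0.52 ± 0.13 in WT), and Creb1 fell in both (-0.55 ± 0.11 in CKO and -0.53 ± 0.11 in WT). Nfyc, a Y box subunit, was called in WT and not in CKO, at 0.12 ± 0.10 in CKO and 0.26 ± 0.10 in WT, and Rfxank, Rfxap, Nfya and Nfyb were called in neither. Among genes that set the surface life of class II, March1, a ubiquitin ligase that removes it, rose by 0.91 ± 0.16 in CKO and 0.86 ± 0.16 in WT. Cd83, which opposes that ligase, rose by 1.31 ± 0.26 in CKO and 2.36 ± 0.27 in WT. March8, a related ligase, fell in WT (-0.36 ± 0.09, edgeR adjusted p = 0.00393) and was not called in CKO (-0.17 ± 0.09, adjusted p = 0.146). None of the 20 was called between CKO_CRE and WT_CRE by edgeR, beside 0.916% of all genes tested. Of the 20, 7 had an unadjusted edgeR p below 0.05, as had 18.5% of all genes tested.

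**Figure D5:**
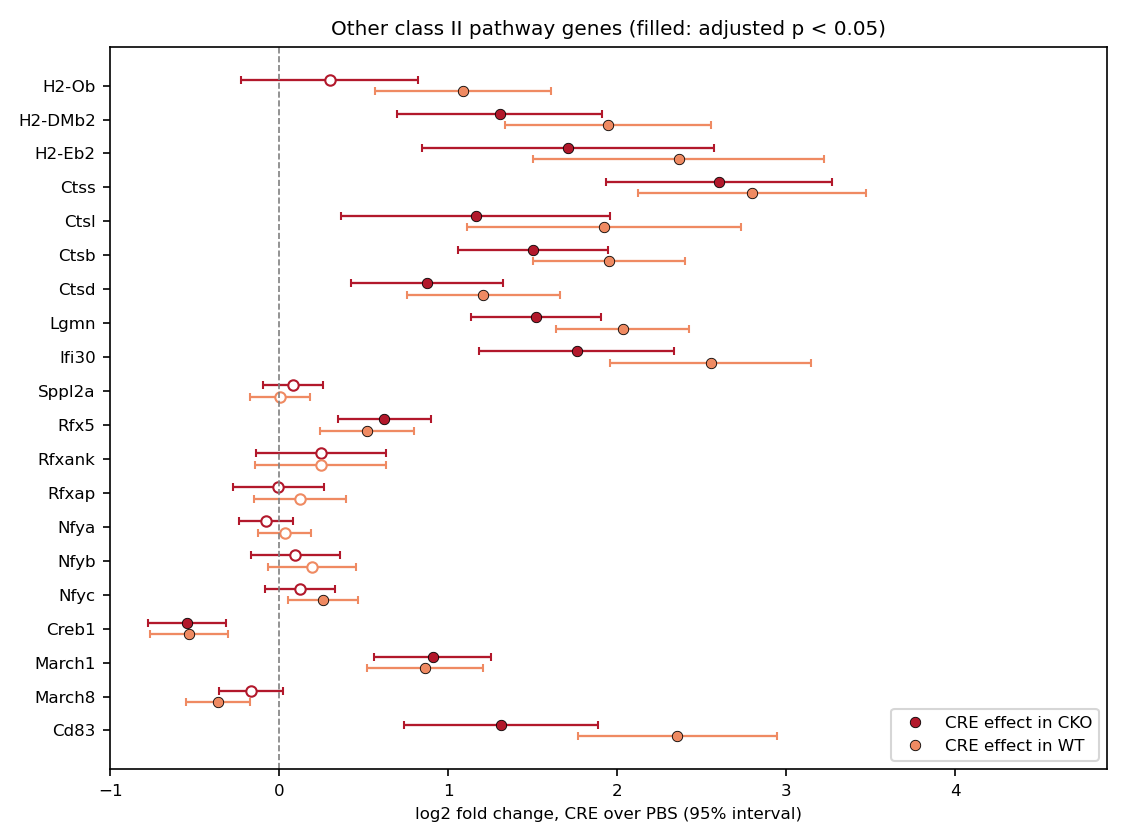
Log2 fold changes of CRE over PBS with 95% intervals for 20 further genes of the class II pathway, CKO above WT in each row. Filled points have an edgeR adjusted p below 0.05; Ctss, Ifi30 and H2-Eb2 lie farthest to the right in CKO, Sppl2a lies near 0, and the box-binding factors from Rfx5 to Creb1 lie within 1 log2 unit of 0.

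Genes of neighbouring pathways were counted from lists. Of all genes tested, 20.6% were called higher and 18.5% lower in CKO, and 28.6% higher and 28.4% lower in WT. Of 17 MHC class I presentation genes, 15 rose in CKO and 14 in WT, with a median of 0.87 and 0.89. The largest rises were those of the peptide transporter Tap1 (1.61 ± 0.28) and the immunoproteasome subunit Psmb8 (1.47 ± 0.25) in CKO, and of the heavy chain H2-K1 (1.24 ± 0.24) and Tap1 (1.24 ± 0.28) in WT. Of 11 genes of interferon-gamma signalling, the classical inducer of Ciita, 8 rose and 1 fell in CKO, and 6 rose and 1 fell in WT. Socs1, an inhibitor of that pathway, rose by 2.61 ± 0.31 in CKO and 3.31 ± 0.31 in WT. The receptor gene Ifngr1 fell by 0.39 in CKO and by 0.49 in WT, and Ifngr2 rose by 0.94 in CKO and 1.27 in WT. Ifng itself was near the detection limit, at 0.60, 1.05 and 0.88 CPM in CKO_CRE against 0.16, 0.32 and 0.05 CPM in CKO_PBS, and at 0.82, 0.66 and 0.48 CPM in WT_CRE against 0.45, 0.50 and 0.12 CPM in WT_PBS. It was called in CKO (2.21 ± 0.60, edgeR adjusted p = 0.013) and not in WT (0.82 ± 0.56, adjusted p = 0.232).

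Of 5 genes of the Mif and Cd74 signalling axis, 2 rose in CKO and 3 in WT. Among all genes tested, 20.6% were called higher in CKO and 28.6% in WT. The ligand Mif rose by 0.97 ± 0.27 in CKO and 1.53 ± 0.27 in WT, and the co-receptor Cd44 by 0.65 ± 0.11 in CKO and 0.89 ± 0.11 in WT. The co-receptor Cxcr2 was called in WT (2.06 ± 0.56) and not in CKO (0.07 ± 0.53). Its PBS levels differed, at 13.5, 30.6 and 7.59 CPM in CKO_PBS against 7.88, 5.04 and 4.24 CPM in WT_PBS. With CRE the genotypes overlapped, at 17.1, 31.2 and 6.17 CPM in CKO_CRE against 24.9, 27.6 and 19.6 CPM in WT_CRE. Of 6 tested costimulation genes, 5 rose in each genotype. The inhibitory ligand Pdcd1lg2 was at 13.6, 39.5 and 19.8 CPM in CKO_CRE against 0.78, 0.97 and 0.58 CPM in CKO_PBS, and at 69.1, 66.8 and 56.0 CPM in WT_CRE against 0.96, 0.76 and 0.18 CPM in WT_PBS. It rose by 4.96 ± 0.45 in CKO and 6.61 ± 0.47 in WT, the largest change in the class I, interferon-gamma, Mif and costimulation lists. Its CKO_CRE libraries lay below those of WT_CRE with no overlap, without a call (-1.40 ± 0.33, edgeR adjusted p = 0.0724).

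Cells that carry class II left their marks in the same libraries. Of all genes tested, CRE gave 20.6% called higher and 18.5% called lower in CKO, and 28.6% and 28.4% in WT, to be read beside the counts below. Interstitial macrophage markers summed to 2377 to 4606 CPM in CKO_CRE against 1334 to 1481 CPM in CKO_PBS, and to 3780 to 3962 CPM in WT_CRE against 1255 to 1566 CPM in WT_PBS. Of these 12 markers, 11 were called higher in CKO and 10 in WT, and Lyve1 was called lower in both (-0.90 ± 0.22 in CKO and -1.26 ± 0.22 in WT). Dendritic cell markers summed to 689 to 1026 CPM in CKO_CRE against 437 to 545 CPM in CKO_PBS, and to 895 to 944 CPM in WT_CRE against 497 to 528 CPM in WT_PBS. Of these 12, 5 were called higher in each genotype, and 1 in CKO (Zbtb46) and 2 in WT (Zbtb46 and Clec9a) were called lower. Itgax, which is also in the alveolar macrophage list, made up much of the rise in the sum, at 232 to 505 CPM in CKO_CRE against 72.1 to 82.8 CPM in CKO_PBS, and at 355 to 374 CPM in WT_CRE against 71.6 to 90.5 CPM in WT_PBS. Alveolar macrophage markers summed to 1102 to 1586 CPM in CKO_CRE against 539 to 618 CPM in CKO_PBS, and to 1237 to 1331 CPM in WT_CRE against 527 to 612 CPM in WT_PBS. Of these 12, 5 were called higher in each genotype, and Itgax and Ctsk made up much of the rise in the sum. Called lower were 1 in CKO (Fabp1) and 4 in WT: Fabp1 (-5.95), Cidec (-3.64), Marco (-3.50) and Krt79 (-2.51). The sum therefore hides changes of both signs. Type 2 alveolar markers summed to 27081 to 32672 CPM in CKO_CRE against 33625 to 35431 CPM in CKO_PBS, and to 24704 to 29198 CPM in WT_CRE against 31223 to 34339 CPM in WT_PBS. Of these 10 markers, 2 were called higher and 3 lower in CKO, and 2 higher and 4 lower in WT, and Sftpc, which gave the largest share of the sum, was among those called lower in both. The part of each cell type in the rise of the class II genes was not tested.

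Genes with the most similar profiles were sought by Pearson correlation of log2 CPM over the 12 libraries with the mean centred profile of the 8 genes, among 13856 other genes. The 5 closest were Ruvbl2 (0.989), Slfn2 (0.984), Adap1 (0.984), Lag3 (0.983) and Mcub (0.981). Ruvbl2, a DNA helicase subunit, matched the shape with a much smaller rise, 0.31 ± 0.08 in CKO and 0.27 ± 0.08 in WT, whereas Lag3, an inhibitory receptor of T cells that binds class II, rose by 2.68 ± 0.40 in CKO and 3.07 ± 0.41 in WT. For Ciita alone the closest were Phf11c (0.962), Zfp992 (0.954) and Galnt12 (0.950), and for H2-Oa alone Cd3d (0.970), St8sia1 (0.967) and Cd48 (0.962). Cd3d encodes a chain of the T cell receptor complex, with 13.0 ± 6.31 CPM in CKO_CRE, 21.7 ± 4.11 in WT_CRE, 7.52 ± 2.69 in CKO_PBS and 7.34 ± 1.36 in WT_PBS (SD, n = 3 each). All libraries share the split by CRE, so any gene that follows CRE scores high, and the coefficients are given without a test.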

How the data were processed

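Read counts per gene were used as deposited by the authors, in 1 table with all 12 columns used. The submitters' processing notes name fastp, STAR and mm10. Which counter and annotation were used, with which strand setting and which rule for reads with several matches, is not stated in them. The labels' protocols name a NEBNext Ultra kit, with no statement on strand. GENCODE M21 matched 54409 identifiers, and 22229 genes had no count in any library.

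The fit used edgeR 4.0.16 under R 4.3.3, TMM scaling, filterByExpr, 1 mean per group over 12 libraries and the quasi-likelihood F test, 2-sided. Benjamini-Hochberg adjustment ran over 17473 genes, with a threshold of 0.05 for a call. Between libraries the coefficient of biological variation was 17.4%. The totals of 16250674 to 21559210 counts limit the precision of scarce genes such as H2-Oa most. The procedure was tested on simulated data. The simulation changed few genes in a single group and gave every group the same spread, unlike these data. It therefore does not show how reliable the calls are here. CPM used TMM-scaled library sizes, and RPKM divided them by the union of annotated exons. Alternatives were DESeq2 1.42.0 (its size factors and its Wald test), limma 3.58.1 (voom with library weights), no filter, only the groups compared, a replicate block, sex as a covariate and each library left out. The counts of H2-DMb1 and H2-DMb2, and those of H2-Eb1 and H2-Eb2, were also summed, which changed no call of H2-DMb1 or H2-Eb1. Copies were found with blastn 2.17.0 over at least 200 bases.

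The 8 genes and all lists were chosen with earlier results of these data known, so no p-value is given for a list. Values were printed for all 8 genes, for called genes of the class II lists, and for up to 2 rising and 2 falling called genes of the other lists. The most similar profiles were sought among genes with a mean of at least 1 CPM, leaving out predicted genes, pseudogenes and antigen receptor segments. Sppl2a and the genotype values of Pdcd1lg2, H2-Ob, H2-DMb2 and H2-Eb2 were added after their values were seen.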

Additional observations from a re-analysis of the deposited data

How the results depend on the processing

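The 40 values of the 8 genes in the 5 comparisons were recomputed under each alternative. Of the recomputed values, 750 stayed on the same side of the threshold, 2 lost a call (Ciita in WT, given above) and 10 gained one. Direction was compared only where a value was called, and 0 of those reversed. Values without a call could change sign, as Cd74 did between genotypes under CRE (-0.24 to 0.21 over the alternatives). The gains were those of H2-Oa for CRE in CKO (6 alternatives) and under CRE between genotypes (2), and of Ciita with limma-voom (2). Whether the replicate numbers pair the libraries was not settled. Of 18 same-numbered pairs, 4 correlated above 0.1, with 0.176 the highest. Among libraries of the other groups, 8 of 12 libraries correlated best with one of their own number. With the replicate block H2-Oa was called in CKO (adjusted p = 0.0494), and the interaction had 0 called genes in place of 8. No other call of the 8 genes changed with the block.

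Counts over all genes were less stable. For CRE in CKO, 6830 genes were called, and 3812 with only the groups compared. Between genotypes under CRE, 160 were called, against 691 without the filter, 29 with only the groups compared, 7645 by limma-voom, 838 by DESeq2, and 38 (without WT_CRE replicate 1) to 5112 (without CKO_CRE replicate 2) with a library left out. Of the 8 class II genes, limma-voom called 2 there, and 0 to 1 were called with a library left out. Under PBS, 19 were called, against 89 without the filter, 74 with only the groups compared, 146 by limma-voom, 114 by DESeq2, and 12 to 53 with a library left out. For the interaction, 8 were called, against 81 without the filter, 2 with the sex covariate, 4371 by limma-voom, 128 by DESeq2, and 0 to 2660 (without CKO_CRE replicate 2) with a library left out. Limma-voom called 1 of the 8 class II genes there. Why these counts moved was not tested. With the longest transcript as the length, 22 of 32 mean levels moved by more than 1 SD. In groups of 3 libraries, no search for outlying libraries was made.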
